A study of Mus musculus with 9 samples.

Results

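Open chromatin of prosensory cells of the mouse cochlear duct was compared between the start and the end of a developmental time course, E12 and E16 (embryonic days 12 and 16). The comparison used the 4 peak lists of Sox2-EGFPhigh+ cells at these stages, 2 samples each, out of 9 samples in the series. Samples were taken by their titles. The cells came from heterozygous embryos of the strain B6;129S-Sox2tm2Hoch/J, in which EGFP is knocked into one allele of Sox2, so every sample carried 1 disrupted Sox2 allele. Cochlear ducts of 1 litter were pooled per sample, and the cells with the brightest EGFP were sorted. ATAC-seq, in which a transposase cuts and tags accessible DNA, was run on the sorted cells without any treatment. The other samples were 2 of Sox2-EGFPhigh+ cells at E14.5, and 1 at E14.5 and 2 at E16 of Sox2-EGFP- cells, the cells of the duct without EGFP.

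Prosensory cells are the progenitors in the floor of the cochlear duct that give rise to the hair cells and supporting cells of the organ of Corti. They depend on the transcription factor Sox2, and Gata3, Eya1 and Isl1 are active in the same epithelium. At E12 these cells still divide; by E16 they have left the cell cycle and hair cell differentiation has begun from the base of the duct. The Sox2 domain also narrows over this time, so a brighter or weaker peak in a bulk list cannot be told apart from a different mixture of the sorted cells. Distal accessible regions, away from promoters, often hold enhancers, where transcription factors bind short sequence motifs.

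The cell type tags of the deposit contradicted the titles for E16 replicate 2, which was tagged as EGFP-negative, and for both E16 Sox2-EGFP- samples, which were tagged as EGFP-positive. The lists were therefore checked at marker genes. Of 8 epithelial genes, which include Epcam and Cdh1, the promoters of 7 had a peak in E16 replicate 1 and of 7 in E16 replicate 2, against 0 in each of the 3 Sox2-EGFP- lists. At E12 the promoters of 5 and 4 of these genes had a peak. Among the 2000 highest distal peaks, none lay nearest to 1 of 10 mesenchymal genes in the 4 Sox2-EGFPhigh+ lists, while 4, 6 and 4 did in the Sox2-EGFP- lists. E16 replicate 2 thus followed its title at the epithelial promoters and at these distal peaks. Promoters of the 10 mesenchymal genes hardly set the E16 lists apart. Of these promoters 0 and 1 had a peak at E12, 6 and 5 at E16, and 7, 7 and 6 in the Sox2-EGFP- lists. Of 14 prosensory genes, the promoters of 9 and 9 had a peak at E12, of 13 and 13 at E16 and of 11 in each of the Sox2-EGFP- lists, in full lists that differ in length. The 8 glial genes were looked at because spiral ganglion glia also express Sox2; the promoters of 3 and 1 had a peak at E12 and of 5 and 5 at E16, and the promoters of 4 in each of the Sox2-EGFP- lists.

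The lists differed in length. On chromosomes 1 to 19, X and Y they held 13789 and 7551 peaks at E12 and 39273 and 65820 at E16, of which 33.3% and 27.8% were distal at E12 and 62.2% and 75.6% at E16. A peak was distal when its region did not touch a promoter, the stretch between 1000 bp before and 100 bp after a protein-coding start. The paper reports fewer reads, and a lower share of reads in peaks, for both E12 samples than for both E16 samples. The lists themselves hold no read counts, so the depth behind a value is unknown from them. A peak absent at E12 was therefore not taken as closed chromatin. For this reason the 2000 peaks of each class with the highest −log10 p of each sample were compared, where a rank of 1 is the highest. Even so the same rank meant a different peak strength. The −log10 p of the last distal peak taken and of the next one left out was 8.56 and 8.54 in E12 replicate 1, 5.32 and 5.32 in E12 replicate 2, 26.7 and 26.7 in E16 replicate 1, and 26.3 and 26.3 in E16 replicate 2. E12 replicate 2 held 2099 distal peaks in all, so its 2000 highest nearly exhausted the list. The median width of the distal peaks taken was 315 and 256 bp at E12, and 597 and 618 bp at E16. E16 replicate 1 was sequenced in another batch than the other 3 samples, and values without it are given where they bear on a result.

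A region was called for a stage when both samples of that stage and neither of the other had a peak among the 2000 highest. Of 4441 distal regions, 223 were called for E12 and 368 for E16. These are 5.02% and 8.29% of all distal regions. Another 445 regions were in all 4 samples, and 2392, or 53.9%, were in a single sample. The sequences of the best-ranked calls are shown because they are the places with the highest ranks among the calls. Each is 201 bases of mm9 around the peak's highest point, on the forward strand. Capitals mark matches on either strand to 10 motifs whose shares separated the stages (Gata, Tead, Ctcf, Rfx, Nfy, Sp/Klf, Atoh1 E-box, Runx, Lef/Tcf and Meis). The first 3 had the best mean rank at E12, and the next 3 the best mean rank at E16.
Chl1 region, chr6:103599082-103599282: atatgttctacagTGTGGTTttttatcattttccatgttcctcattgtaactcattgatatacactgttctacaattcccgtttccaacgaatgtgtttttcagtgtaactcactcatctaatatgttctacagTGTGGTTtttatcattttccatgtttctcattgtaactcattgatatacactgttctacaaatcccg
Rab11fip2 region, chr19:59926617-59926817: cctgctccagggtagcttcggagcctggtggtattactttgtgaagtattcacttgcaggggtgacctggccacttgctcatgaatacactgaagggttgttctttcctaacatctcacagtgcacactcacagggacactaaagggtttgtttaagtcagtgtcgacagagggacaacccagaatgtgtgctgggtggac
Prkd1 region, chr12:52068516-52068716: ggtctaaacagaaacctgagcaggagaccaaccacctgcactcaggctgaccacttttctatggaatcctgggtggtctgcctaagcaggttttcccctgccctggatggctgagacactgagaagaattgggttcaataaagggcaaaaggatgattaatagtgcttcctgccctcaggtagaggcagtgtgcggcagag
Zfp708 region, chr13:67209455-67209655: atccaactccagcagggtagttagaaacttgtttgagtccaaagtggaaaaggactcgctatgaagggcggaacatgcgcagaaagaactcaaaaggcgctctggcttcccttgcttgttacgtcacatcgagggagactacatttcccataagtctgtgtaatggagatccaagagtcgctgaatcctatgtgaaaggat
Cdca7l region, chr12:119232029-119232229: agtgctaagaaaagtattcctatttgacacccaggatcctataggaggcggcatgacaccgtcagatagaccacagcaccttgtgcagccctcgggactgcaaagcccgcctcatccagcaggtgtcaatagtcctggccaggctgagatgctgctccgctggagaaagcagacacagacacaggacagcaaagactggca
Kctd14 region, chr7:104595106-104595306: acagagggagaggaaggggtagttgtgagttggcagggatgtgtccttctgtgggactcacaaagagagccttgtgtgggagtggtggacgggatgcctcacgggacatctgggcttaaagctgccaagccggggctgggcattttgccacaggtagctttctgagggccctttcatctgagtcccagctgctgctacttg

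The region named for Chl1, a neural adhesion molecule, lay in an intron 138.3 kb downstream of its start, and it ranked 66 and 17 at E12 and 3313 and 3029 at E16. Its sequence is a tandem repeat with 6 further copies of at least 90% identity in the genome, so reads there could not be placed with certainty. It ranked 265 and 48 in the E16 Sox2-EGFP- lists, far above its ranks in the E16 Sox2-EGFPhigh+ lists. Copies elsewhere were found for 9 of the 223 regions called for E12 and 11 of the 368 called for E16. The region 92.2 kb downstream of the start of Rab11fip2, which encodes a partner of the recycling GTPase Rab11, ranked 79 and 40 at E12 and 2186 and 3125 at E16. The one 318.4 kb upstream of Prkd1, a protein kinase, ranked 125 and 59 at E12 and 5177 and 12486 at E16. Neither had a copy elsewhere or a peak in any Sox2-EGFP- list. At E16 the region in an intron of Zfp708, a zinc finger gene, ranked 149 and 89, and it ranked 3042 in E12 replicate 1 and had no peak in E12 replicate 2. The regions named for Cdca7l and Kctd14 ranked 270 and 101, and 267 and 139, at E16 and had no peak in either E12 list. All 3 had a peak in each of the Sox2-EGFP- lists, and Cdca7l ranked 1073, 1490 and 1204 there.

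Further regions called for E12 with high ranks were nearest to Dnaic1, Igf1r, Bdh1, Kctd15, Zfp36l1 and Lhx1. Igf1r encodes the receptor of insulin-like growth factor 1, and its region, in an intron, ranked 344 and 101 at E12 and 3501 and 7087 at E16. Lhx1 is a LIM homeodomain factor. The region 135.6 kb upstream of it ranked 263 and 294 at E12 and 2500 and 8878 at E16. The next 7 called for E16 were nearest to Atp4a, Adhfe1, Zfp873, 2610018G03Rik, Tlr1, Slc5a3 and Syt3. Of these, Adhfe1 and Zfp873 had no peak in either E12 list, and the region in an intron of Adhfe1 ranked 420 and 30 at E16. Each of these 7 had a peak in all 3 Sox2-EGFP- lists. Of the 6 named for E12, Bdh1 had a peak in all 3 and Kctd15 in 2 of them, and the others had none.

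The calls for the 2 stages differed in what the other stage held below rank 2000. Every one of the 223 regions called for E12 had a peak in at least 1 full E16 list, 217 in replicate 1 and 222 in replicate 2, at median ranks of 5230 and 5099.5. In 98 of them neither E16 peak was among the 4000 highest distal peaks. Of the 368 regions called for E16, 149 had a peak in the full list of E12 replicate 1 and 5 in that of replicate 2, and 216 had one in neither. A call for E12 was therefore a change of rank and not the loss of a peak, while for E16 the short E12 lists do not tell a weaker peak from none. The measured levels went with this. For the E12 calls the median fold enrichment, the pileup at the summit over the local background within a sample, was 6.47 and 5.45 at E12 and 6.08 and 7.14 at E16. Of the 216 with a peak in all 4 full lists, 26 had a higher fold enrichment in both E12 samples than in both E16 samples, and 64 a lower one. Their median −log10 p was 10.6 and 8.15 at E12 and 17.1 and 19.6 at E16. For the E16 calls the median fold enrichment at E16 was 9.29 and 10.1.

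**Figure D1:**
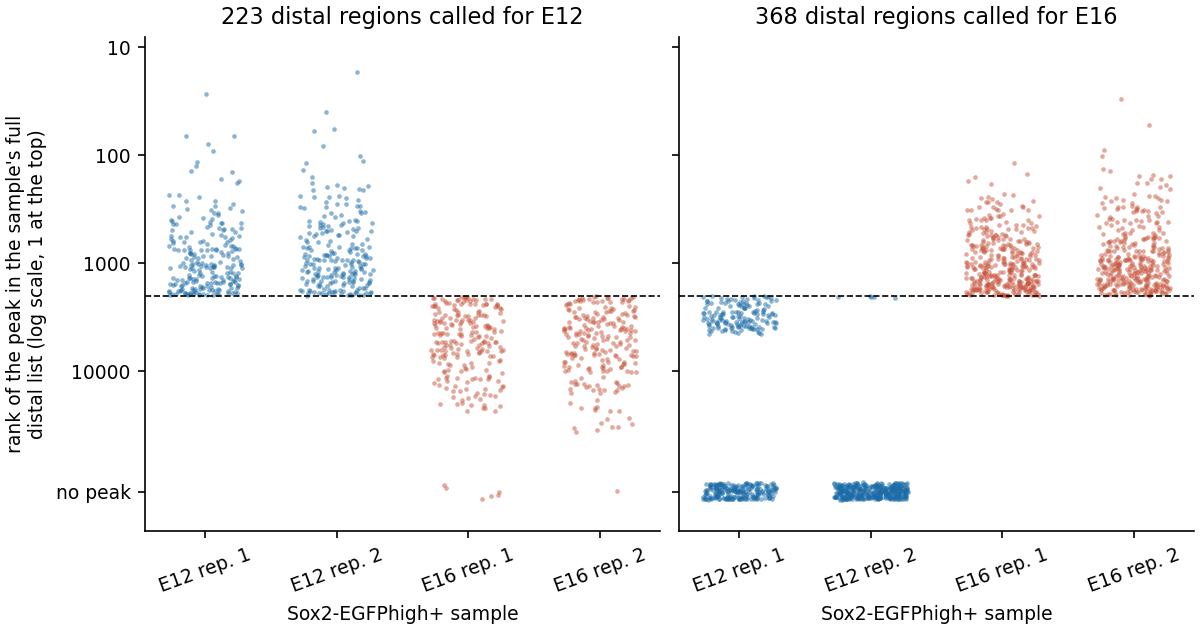
Rank of each called distal region in each sample's full distal list, on a log axis with rank 1 at the top. Left, the 223 regions called for E12; right, the 368 called for E16. Each point is 1 region in 1 sample, the dashed line is rank 2000, and the lowest band holds regions without a peak. Nearly all regions called for E12 had a peak at E16 below the line, whereas 219 and 363 of those called for E16 had no peak in E12 replicates 1 and 2.

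Whether samples of a stage resembled each other more than samples of different stages was tested on the share of the 2000 highest peaks that overlapped. The authors had already dropped peaks seen in only 1 sample of a cell type, which raises sharing in every pair. For distal peaks the E12 replicates shared 42.1% and the E16 replicates 59.8%. The pairs between stages shared 45.7%, 42.2%, 41.1% and 40.6%. The E16 pair was thus the highest, while the E12 pair lay inside the range of the pairs between stages. The mean within stages exceeded the mean between stages by 8.52 percentage points (one-sided exact permutation test, p = 0.333, the smallest that 3 ways of pairing 4 samples allow). For promoter peaks the E12 pair shared 53.7% and the E16 pair 68.4%, against 56.7%, 56.8%, 56.8% and 54.0% between stages, a difference of 5.02 points (p = 0.333 by the same exact test). Both differences rested on the E16 pair. Without E16 replicate 1 they were 0.663 points for distal and -1.66 for promoter peaks, and without E16 replicate 2 they were -1.32 and -3.01.

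**Figure D2:**
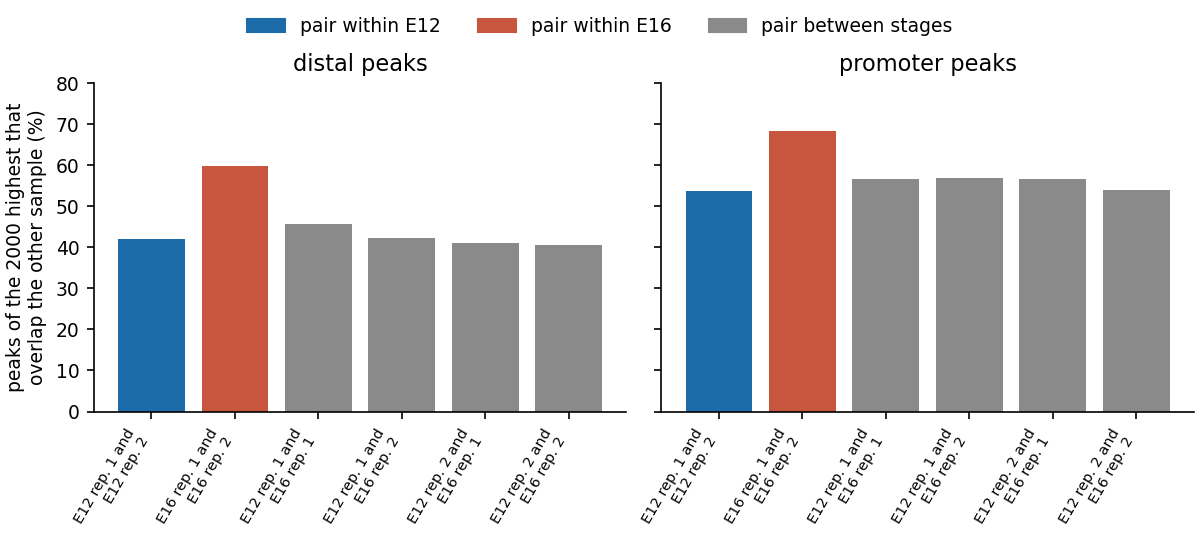
Share of the 2000 highest peaks that overlap a peak among the 2000 highest of another sample (percent, mean of both directions), for each pair of the 4 samples, with distal peaks on the left and promoter peaks on the right. Each bar is 1 pair. The E16 pair stands at 59.8% and 68.4%, above the 4 pairs between stages, and the E12 pair at 42.1% and 53.7% does not.

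Genes of prosensory specification lay nearest to more of the high distal peaks at E12. For a list of 14 such genes, 12 and 14 of the 2000 highest distal peaks at E12 had one of them as the nearest gene, against 5 and 6 at E16, 5 and 6 in the E14.5 samples, and 5, 3 and 5 in the Sox2-EGFP- lists. At E12 these peaks included 3 and 2 at Sox2, 1 and 2 at Gata3, 1 and 2 at Isl1, and 5 and 1 at Tbx3, a T-box factor, so Tbx3 gave 5 of the 12 peaks of replicate 1 and 1 of the 14 of replicate 2. At E16 there were 1 and 2 at Sox2, 1 and 1 at Tbx3, and none at Gata3 or Isl1. Not every gene of the list leaned to E12: Lmo4, a LIM-only cofactor, had none at E12 and 1 and 1 at E16, and Eya1, a phosphatase and coactivator, had 0 and 2 at E12 and 1 and 1 at E16. The E12 and E16 samples did not overlap in this count (2-sided exact permutation test, p = 0.333, the smallest that 2 against 2 samples allow, Benjamini-Hochberg adjusted p = 0.874 over 21 lists). The lists were chosen with earlier results known. Labels set without regard to stage would, ties aside, be expected to separate a share of 0.333 of the lists. The counts that follow therefore do not by themselves show a stage difference. In 6 of the 21 lists, or 28.6%, both E12 samples were above both E16 samples, and in 2, or 9.52%, both were below. The others higher at E12 were otic patterning factors (17 and 18 peaks against 10 and 8), Bmp and activin genes (13 and 16 against 11 and 8), Fgf genes (9 and 7 against 6 and 3), planar cell polarity genes (5 and 5 against 3 and 4) and glial genes (2 and 2 against 1 and 1). The 2 higher at E16 were epithelial genes (2 and 2 against 5 and 4) and the Nfi, Ebf and Tead factors (8 and 8 against 10 and 9). Counts for Notch genes (10 and 10 against 11 and 7), Wnt genes (15 and 12 against 11 and 12), supporting cell genes (8 and 8 against 12 and 8), cell cycle genes (4 and 7 against 8 and 6), hedgehog genes (5 and 4 against 6 and 1), otic matrix genes (8 and 4 against 5 and 7) and hair cell genes (2 and 3 against 2 and 0) overlapped.

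Called regions at these genes were few. Over all lists, with each gene counted once, 220 distal regions had a list gene as the nearest one. Of these 16 were called for E12 (7.27%, beside 5.02% of all distal regions) and 15 for E16 (6.82%, beside 8.29%), and 17 were in all 4 samples. Sequences of the calls at Gata3 and Isl1, both needed in the prosensory epithelium, are shown because they are the prosensory genes with a call for E12. They were chosen after their values were seen.
Gata3 region, chr2:9817800-9818000: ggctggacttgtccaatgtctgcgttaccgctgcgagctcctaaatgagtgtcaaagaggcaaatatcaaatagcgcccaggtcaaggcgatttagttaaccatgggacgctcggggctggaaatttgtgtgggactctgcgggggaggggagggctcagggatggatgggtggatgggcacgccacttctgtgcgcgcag
Isl1 region, chr13:117084141-117084341: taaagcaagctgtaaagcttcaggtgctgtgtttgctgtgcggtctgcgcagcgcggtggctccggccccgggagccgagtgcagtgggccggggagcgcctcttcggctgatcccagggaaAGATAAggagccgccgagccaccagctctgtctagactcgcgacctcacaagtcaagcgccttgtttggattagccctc

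The region 6.24 kb upstream of Gata3, a zinc finger factor of the early ear, ranked 1586 and 363 at E12 and 6190 and 5348 at E16. Its fold enrichment was 5.74 and 6.31 at E12 and 5.52 and 6.64 at E16, so the groups overlapped on that scale. The region 15.7 kb downstream of the start of Isl1, a LIM homeodomain factor, ranked 1548 and 1106 at E12 and 7001 and 9262 at E16. Its fold enrichment was 6.19 and 5.34 at E12 and 5.02 and 5.34 at E16. Neither region had a peak in a Sox2-EGFP- list, and both had one in each E14.5 sample. The third call at a prosensory gene went to E16. It lay 175.9 kb upstream of Lmo4, ranked 1470 and 850 at E16, and had no peak at E12. Unlike the regions at Gata3 and Isl1, it had a peak in all 3 Sox2-EGFP- lists, at ranks 4236, 1261 and 5885. Sox2 had 5 distal regions, none of which was called for either stage.

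Differentiation and proliferation genes were called in both directions, in counts per list too small to be set apart from the 5.02% and 8.29% of all distal regions called for E12 and E16. The hair cell list had 3 distal regions, of which 1 was called, for E12. It lay 24.7 kb downstream of the start of Fgf8, a ligand made by inner hair cells, ranked 1632 and 926 at E12 and 2044 and 2287 at E16, just below the limit of the top list. Its fold enrichment was 5.47 and 5.24 at E12 and 7.76 and 8.12 at E16, so on that scale both E16 samples were above both E12 samples, opposite to the rank. The supporting cell list had 19 regions, with 1 call for E12, at Slc1a3, and 2 for E16, at Cdkn1b and Otogl. Cdkn1b encodes the cell cycle inhibitor p27, which marks prosensory cells as they stop dividing. The region 8.38 kb downstream of its start ranked 469 and 1520 at E16. It ranked 2931 in E12 replicate 1 and had no peak in E12 replicate 2. It also had a peak in all 3 Sox2-EGFP- lists, at ranks 657, 511 and 1077. Otogl encodes an otogelin-like protein of the otic matrix, and its region, in an exon, ranked 742 and 568 at E16 and 2087 in E12 replicate 1. Slc1a3, a glutamate transporter of glia and supporting cells, had a call for E12, 77.8 kb downstream of its start, with ranks of 1020 and 1456. Sox10, the defining factor of glia that the otic epithelium also expresses, had 1 too, 11.5 kb downstream, with ranks of 1000 and 899 at E12 and 2310 and 6329 at E16. Fold enrichment at this Sox10 region was 4.085 and 4.241 at E12 and 4.371 and 4.269 at E16, by a small gap opposite to the rank. The part of glia in these calls was not tested; of the other 7 glial genes only Mbp had a distal region, which was not called.

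Of 16 regions at cell cycle genes, 1 was called for E12 and 3 for E16, beside the 5.02% and 8.29% of all distal regions. Ccnd3, which encodes cyclin D3, had one of each, both in introns. The one for E12 ranked 1591 and 499 at E12 and 4483 and 22006 at E16, and the one for E16 ranked 323 and 949 at E16 with no peak at E12. Mycn, a growth-promoting factor, had a call for E16 at ranks 1141 and 624. Grhl2 and Fzd9 also had a call in each direction. At Grhl2, an epithelial transcription factor, the region 73.5 kb upstream ranked 1864 and 1781 at E12 and 9051 and 10063 at E16. The region 34.9 kb upstream ranked 313 and 966 at E16 and 4247 in E12 replicate 1. At Fzd9, a Wnt receptor, the region 2.69 kb upstream was called for E12 and the one 13.0 kb upstream for E16. Acvr2a, an activin receptor, had 2 calls for E12 and 1 for E16, between 399.0 and 495.5 kb upstream, and all 3 were without a peak in the Sox2-EGFP- lists. At both regions called for E12 the fold enrichment was higher in both E16 samples, opposite to the rank: it was 6.16 and 5.41 at E12 and 8.59 and 7.63 at E16 for the one 481.4 kb upstream, and 6.55 and 5.56 against 7.61 and 7.51 for the one 399.0 kb upstream. At these 4 genes different regions had their high ranks at different stages.

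The calls in the signaling lists are likewise given beside 5.02% and 8.29% of all distal regions, as a description of single regions. Notch genes had 18 distal regions, with calls for E12 at Notch1, the receptor itself (ranks 1718 and 936 at E12, 15765 and 19629 at E16), and Maml3, and for E16 at Maml2, both coactivators of the Notch complex. Fgf genes had 13, with calls for E12 at Fgf8 and the receptor gene Fgfr1. Wnt genes had 23, with calls for E12 at Fzd9 and for E16 at Fzd9 and Tcf7l2, a DNA-binding effector of the pathway. Bmp and activin genes had 28. Besides Acvr2a, Id4, an inhibitor of helix-loop-helix factors, was called for E16 at ranks 1451 and 1635. Hedgehog genes had 9 and none was called. Among planar cell polarity genes Vangl1 and Prickle2 were called for E12, and among otic patterning genes Gata3 and Eya4 for E12 and Msx2 for E16. The otic matrix list had 16 regions with 1 call, at Otogl, and the list of Nfi, Ebf and Tead factors 18 with 1 call, at Tead1, both for E16. Epithelial markers had 9 regions, with 1 call for E12, at Grhl2, and 3 for E16, at Grhl2, Krt8 and Krt18. The Krt8 region ranked 863, 286 and 1562 in the Sox2-EGFP- lists, and the Grhl2 region called for E12 had a peak in each of them. The Krt18 region and the Grhl2 region called for E16 had none there. There was no call at genes of the nonsensory duct, neurons, mesenchyme, macrophages, endothelium or melanocytes.

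Short sequence motifs were counted within 100 bp of the highest point of each of the 2000 highest distal peaks per sample, a measure that the calling rule did not use. Of 26 motifs, 6 had higher shares in both E12 samples than in both E16 samples and 4 lower ones. These are 23.1% and 15.4% of the motifs. Labels set without regard to stage would, ties aside, be expected to separate a share of 0.333 of the motifs. The counts by themselves therefore do not show a stage difference. With 2 samples a stage the exact two-sided permutation test cannot go below p = 0.333, and the adjusted p over the motifs was 0.867 for each of the 10. Printed next are the best-ranked calls with Tead letters at E12 and with Ctcf and Nfy letters at E16, shown for the sites in capitals.
Zfp36l1 region, chr12:81067072-81067272: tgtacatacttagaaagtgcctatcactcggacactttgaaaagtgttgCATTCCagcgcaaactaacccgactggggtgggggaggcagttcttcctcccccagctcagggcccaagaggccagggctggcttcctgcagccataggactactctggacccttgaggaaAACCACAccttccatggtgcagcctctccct
Scn2a1 region, chr2:65506514-65506714: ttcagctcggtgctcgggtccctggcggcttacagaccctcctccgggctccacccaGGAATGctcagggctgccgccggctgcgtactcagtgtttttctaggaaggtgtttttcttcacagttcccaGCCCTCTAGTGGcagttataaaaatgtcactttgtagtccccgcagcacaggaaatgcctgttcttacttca
Atp4a region, chr7:31502513-31502713: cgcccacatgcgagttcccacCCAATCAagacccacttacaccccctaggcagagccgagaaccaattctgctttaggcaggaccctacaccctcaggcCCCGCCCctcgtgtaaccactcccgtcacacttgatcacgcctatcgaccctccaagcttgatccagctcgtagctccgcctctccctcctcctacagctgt

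Gata letters (AGATAA, bound by Gata factors, among them Gata3) were in 7.25% and 8.55% of the distal peaks at E12 and in 3.20% and 5.45% at E16, with 7.50% and 5.50% at E14.5. The means were 7.90% ± 0.919 and 4.33% ± 1.59 (SD, n = 2 each, p = 0.333, exact permutation test). Every sample at E12 was above both at E16. The Sox2-EGFP- lists had 3.40%, 2.65% and 3.10%. Tead letters (GGAATG, bound by Tead factors, the DNA-binding partners of Yap) were in 15.8% and 14% at E12 and 12.1% and 11.8% at E16. Ctcf letters, a site of the insulator protein Ctcf, were in 3.70% and 3.30% at E12 and 7.05% and 6.35% at E16. E14.5 lay with E12 for Ctcf, at 3.55% and 4.35%, and the Sox2-EGFP- lists lay near E16, at 7.15%, 7.80% and 6.05%. Nfy letters (CCAATCA) were in 6.10% and 5.20% at E12 and 7.60% and 7.45% at E16. Rfx letters (GTTGCCATG), bound by factors of ciliated and hair cells, were in 1.00% and 0.900% at E12 and 1.55% and 1.45% at E16. Sp/Klf letters (GGGCGGG) were in 13.1% and 15.1% at E12 and 24.8% and 16.5% at E16, the largest share being that of E16 replicate 1. Without that sample, in the 1 batch of the other 3, all 10 motifs kept their direction, but they could not have lost it. They were picked because both E12 samples lay beyond both E16 samples, and leaving 1 out cannot undo that. Meis (CTGTCA), Atoh1 E-box (CAGATGG), Runx (TGTGGTT) and Lef/Tcf (CTTTGAT) letters were the others higher at E12, but none of these 4 kept that under every alternative: all 4 overlapped among windows of 50 to 60% GC, and with peaks ranked by fold enrichment Runx and Meis overlapped and Lef/Tcf was higher at E16. The smallest of these gaps, for Lef/Tcf, was between 2.10% and 2.20% at E12 and 2.00% and 2.05% at E16.

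**Figure D3:**
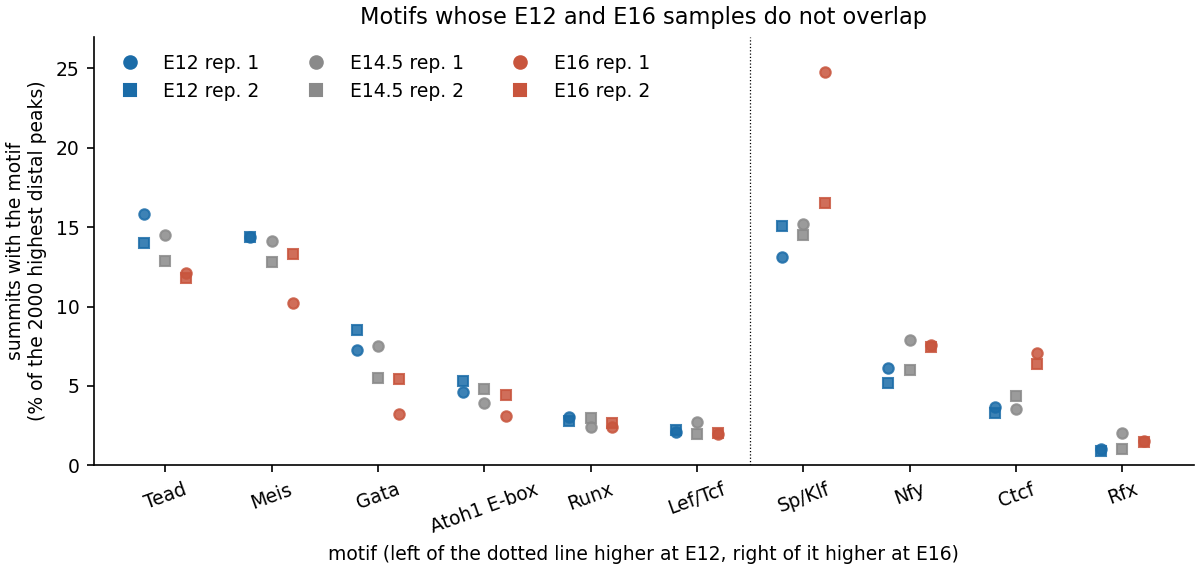
Share of the 2000 highest distal peaks per sample with a motif within 100 bp of the peak's highest point (percent), for the 10 motifs whose E12 and E16 samples do not overlap, with the E14.5 samples in grey. Each point is 1 sample, and circles and squares are replicates 1 and 2. Gata stood at 7.25% and 8.55% at E12 and at 3.20% and 5.45% at E16, and Ctcf stood at 3.70% and 3.30% at E12 and at 7.05% and 6.35% at E16.

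Base composition also set the E12 samples below the E16 samples. The mean GC content around the distal summits was 57.2% and 56.3% at E12 and 60.9% and 57.8% at E16, a difference of 2.61 percentage points (p = 0.333, exact two-sided permutation test). It was 1.08 points without E16 replicate 1 and 4.14 without E16 replicate 2, and 0.695 points with peaks ranked by fold enrichment. The E14.5 samples had 56.9% and 57.2%, and the Sox2-EGFP- lists 58.2% at E14.5 and 60.7% and 59.0% at E16. The 60.7% was that of replicate 1, sequenced in the same batch as E16 replicate 1 of the Sox2-EGFPhigh+ cells. Stage and batch cannot be told apart for that sample. Among windows of 50 to 60% GC, a restriction chosen after the shares were seen, Gata, Tead, Ctcf, Rfx, Nfy and Sp/Klf kept their direction. Sp/Klf stood at 6.23% and 6.05% at E12 and 7.84% and 6.30% at E16, a smaller gap than over all summits. Gata stood at 7.33% and 7.59% at E12 and 4.70% and 6.11% at E16, and Ctcf at 3.48% and 3.08% against 8.93% and 6.39%. Atoh1 E-box, Runx, Lef/Tcf and Meis overlapped there. Motifs named for factors of the prosensory lineage did not all separate the stages. Sox letters (CCATTGTT) were in 2.90% and 2.30% at E12 and 1.80% and 2.85% at E16, and Zeb E-box letters (CAGGTG) in 21.1% and 19.1% against 18.2% and 21.2%. The Sox2-EGFP- lists had 7.25% to 8.85% of the last.

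In the called regions themselves Gata letters were in 28 of 223 for E12 (12.6%), 7 of 368 for E16 (1.90%) and 18 of 445 in all 4 samples (4.04%), with 6.80% over all distal regions. Tead letters were in 18.8%, 9.51% and 12.6% of these groups, and Ctcf letters in 1.79%, 8.15% and 3.15%, with 13.8% and 5.49% over all distal regions. These shares describe regions chosen by the stage and carry no test. The regions called for E12 were narrower, at a median of 302 bp against 573 bp, and had a mean GC content of 54.3% against 59.4%. Of the E12 calls 44.4% had their summit in an intron and 20.2% lay over 100 kb from the nearest start, against 32.9% and 12% of the E16 calls. Over all distal regions these were 38.8% and 17.2%.

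Overlap with the open chromatin of Sox2-EGFP- cells was higher in both E16 samples. Of the 2000 highest distal peaks, 48.2% and 47.4% overlapped a peak of at least 1 Sox2-EGFP- list at E12, 54.0% and 55.0% at E14.5, and 73.5% and 61.0% at E16. The E12 mean was 47.8% ± 0.601 and the E16 mean 67.3% ± 8.80 (SD, n = 2 each), a difference of 19.5 percentage points (p = 0.333, exact two-sided permutation test, the smallest possible). The groups did not overlap, and the difference was 13.2 points without E16 replicate 1. An overlap of 1 bp sufficed, and the distal peaks taken were wider at E16, at medians of 597 and 618 bp against 315 and 256 bp at E12. They also had a higher −log10 p at the same rank. The part of peak width and strength in this difference was not tested. The Sox2-EGFP- samples came from E14.5 and E16, and no E12 sample of that type was analysed here, so stage and cell type cannot be told apart in this comparison. The E16 lists thus have Sox2-EGFP- lists of their own stage, and replicate 1 of both E16 types was sequenced in 1 batch, while the E12 lists have no such counterpart. Against the E14.5 Sox2-EGFP- list alone, a comparison chosen after the values were seen, the shares were 45.0% and 45.1% at E12 and 70.2% and 58.0% at E16, and the groups again did not overlap (p = 0.333, exact two-sided permutation test). Among the calls, 65 of 223 for E12 (29.1%) and 277 of 368 for E16 (75.3%) overlapped a Sox2-EGFP- peak, beside 2219 of all 4441 distal regions.

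The rule did not use the E14.5 samples. Of the 223 regions called for E12, 88 and 90 (39.5% and 40.4%) had a peak among the 2000 highest of E14.5 replicates 1 and 2. Of the 368 called for E16, 218 and 181 (59.2% and 49.2%) did. For all distal regions, most of them found in a single sample, the shares were 39.0% and 36.7%, so the E12 calls stood near that background and the E16 calls above it. Both E14.5 samples held 45 of the E12 calls and 132 of the E16 calls, and neither held 90 and 101. Regions in all 4 samples were at E14.5 in 90.3% and 93.5% of cases. In the full E14.5 lists 98.7% and 92.4% of the E12 calls and all 368 and 92.7% of the E16 calls had a peak, beside 99.3% and 79.9% of all distal regions.

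**Figure D4:**
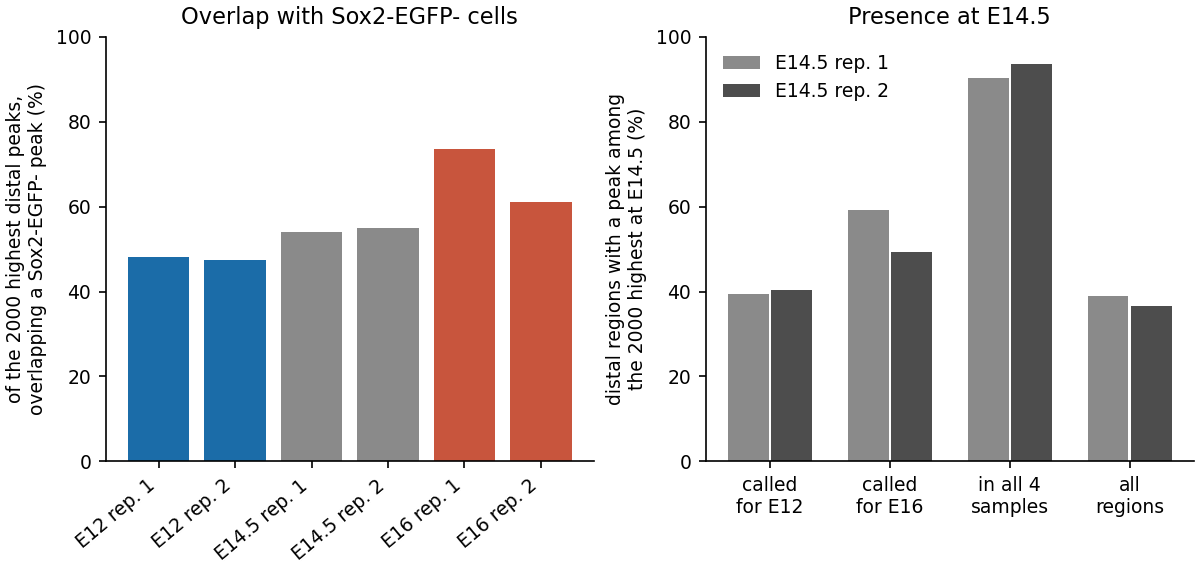
Left, the share of the 2000 highest distal peaks of each Sox2-EGFPhigh+ sample that overlap a peak of at least 1 Sox2-EGFP- list (percent, 1 bar per sample); right, the share of distal regions found in the 2000 highest peaks of E14.5 replicates 1 and 2, for regions called for E12, called for E16, present in all 4 samples, and all regions. The E16 bars on the left, 73.5% and 61.0%, are above the E12 bars, 48.2% and 47.4%; on the right the E12 calls, 39.5% and 40.4%, stand near all regions, 39.0% and 36.7%.

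At promoters 3765 regions were compared, of which 177 were called for E12 and 251 for E16, or 4.70% and 6.67%, while 689 were in all 4 samples. Ranks there gave the place of a promoter among the peaks of its own sample, and did not tell open from closed promoters. All 177 called for E12 had a peak in a full E16 list, and all but 11 of the 251 called for E16 had one in a full E12 list. The best-ranked calls for E12 were at Rab5a, an endosomal GTPase, Adi1, Mast4, Tubb2c, a beta tubulin, and Pde4dip. Rab5a ranked 206 and 227 at E12 and 2126 and 2208 at E16. Those for E16 were at Glcci1, Stard3nl, Uap1, Ttll13 and Terf1, a telomere-binding protein. Stard3nl ranked 134 and 63 at E16 and 7337 and 2881 at E12. Of 43 promoter regions at list genes, 3 were called for E12, at Tbx3, Mycl1 and Smad7, and 0 for E16. The promoter of Tbx3 ranked 1633 and 331 at E12 and 5153 and 4589 at E16, and its fold enrichment was 6.93 and 8.06 at E12 and 9.13 and 9.21 at E16. Smad7, an inhibitor of Bmp and Tgf-beta signaling, had a promoter peak at ranks 402 and 1672 at E12 and 4629 and 5436 at E16. On fold enrichment the E16 samples were both above the E12 samples in 103 of the 176 E12 calls with a peak in all 4 full lists, and both below in 6.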

How the data were processed

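Cochlear duct cells were analysed by ATAC-seq, and 9 peak lists were used, grouped by title. Reads were trimmed by the authors (Trim Galore), mapped to the mm9 genome (Bowtie2) and cleared of duplicates (Picard, SAMtools). MACS2 called the peaks of each sample, and those without an overlapping peak in a second sample of the cell type were dropped. Tool versions are not given in the sources used here. The deposited fold enrichment is a ratio of the summit pileup to the local background. The deposited −log10 p and −log10 q values come from MACS2 and grow with depth. The deposited score and the summit offset were used only to read the files and to place summits. No list gives read counts, so no interval was computed.

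Ranks, regions, overlaps and motifs were computed with Python 3.11.15, pysam 0.24.0 and, for figures, matplotlib 3.10.9, with start sites of GENCODE release M1 for the same build; 0 peaks lay past a chromosome end. Peaks within 100 bp were merged, an overlap of 1 bp sufficed, and 1 class was given to each merged region of the 9 lists, a definition chosen after seeing that single peaks of 1 place fell into both classes. Copies of 100 bp or more at 90% identity were counted with BLAST 2.17.0. Motif letters were searched on both strands, and sites of different motifs may overlap. The E-box names stand for letters that several factors bind. Regions were named by the nearest protein-coding start, which need not be their target. The regions named are the 10 distal and 5 promoter calls of each stage with the lowest mean rank, and calls at list genes; 1 of the 10 distal calls for E12 is not reported here, so 9 are named. Sequences are those of the 3 best distal calls of each stage, and of 5 calls chosen after the values were seen, and some planned items are left out. The motifs, gene lists, and the comparison itself were chosen with earlier results of these data known. Gfi1 and Spi1 matched no start site and were not counted. Calling and motif counting were tested on simulated lists and sequences. The simulated lists had equal lengths and similar peak widths in every sample, so they do not cover the imbalance of the real lists. Groups were compared by exact permutation of samples, each of 1 litter and 1 library. With 2 samples a stage, the two-sided p is 0.333 whenever the groups do not overlap, ties aside. It then reflects the order of the samples and measures neither the gap nor the spread. Litter and library, and batch for E16 replicate 1, cannot be told apart in the differences between samples. Alternatives were the number of peaks, the ranking, promoter and overlap definitions, and leaving out each sample. The ENCODE blacklist was not used here.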

Additional observations from a re-analysis of the deposited data

How the results depend on the processing

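The counts of calls follow from the length of the lists compared. With the 1000 highest peaks there were 120 distal calls for E12 and 170 for E16, and 108 and 129 at promoters; with as many promoter peaks as the shortest list holds, 311 and 496. Ranking by fold enrichment gave 363 and 435 promoter calls. Requiring no peak in the other stage's full lists left 0 and 216 distal and 0 and 11 promoter calls, and requiring none among its 4000 highest, added after seeing the data, left 98 and 234, and 33 and 62. Leaving out each sample gave 306 to 968 distal calls for E12, 535 to 886 for E16, and 266 to 665 and 447 to 575 promoter calls; a stage with 1 sample left needs only that sample, which raises its count by construction. Sharing within minus between stages ranged from -1.32 to 18.9 points for distal and from -3.01 to 13.1 for promoter peaks when 1 sample was left out; it turned negative for distal peaks without E16 replicate 2 (-1.32) and for promoter peaks without E16 replicate 1 (-1.66) or 2 (-3.01). The number of motifs whose samples did not overlap was 10 and ranged from 14 to 23 with 1 sample left out, where fewer samples make overlap rarer. Gata, Tead, Ctcf, Rfx and Nfy kept their direction in all 8 alternatives, and the other 5 did not. Leaving out a sample cannot undo a separation of all 4 samples, so only the alternatives that kept every sample could have changed a direction. Ranked by fold enrichment, Lef/Tcf was higher at E16 and Runx, Meis and Sp/Klf overlapped; Runx and Lef/Tcf also overlapped with the 1000 highest peaks, and Lef/Tcf with 200 bp to each side of the summit. Ranked by fold enrichment, the GC difference was 0.695 points (p = 1.00, exact test). Of the called regions 77 were in both E14.5 lists of 1000 peaks and 544 in both full lists, against 177 of 591. The overlap with Sox2-EGFP- peaks differed by 12.2 to 25.7 points in all alternatives. The litters of the stages differ, so the replicate numbers do not pair samples; with the number as a replicate block the difference was 19.4 points (p = 0.5, exact permutation test, the smallest possible). No list was shorter than those of E12, where a missed peak cannot be told apart from an absent one; the part of depth was not tested.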

Other observations

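Among promoter peaks, 5 of the 26 motifs had higher shares in both E12 samples than in both E16 samples and 3 lower ones. Here too a share of 0.333 would be expected to separate, ties aside, with labels set without regard to stage. Nfy letters, the CCAAT box of many promoters, were in 17.1% and 14.8% of the 2000 highest promoter peaks at E12 and in 19.9% and 22.8% at E16, with 24.4% and 18.6% at E14.5 and 20.1% to 21.8% in the Sox2-EGFP- lists. Zeb E-box letters were in 13.8% and 13.3% at E12, 11.7% and 11.8% at E14.5, 10.8% and 11.4% at E16 and 5.40% to 7.30% in the Sox2-EGFP- lists. Ets letters were in 1.80% and 1.85% at E12 and 2.55% and 2.20% at E16. The exact two-sided permutation test gave p = 0.333 for each of these 3 and an adjusted p of 1.00.

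Regions in all 4 samples ranked high at every stage at several signaling genes. The region 88.7 kb downstream of the start of Axin2, a Wnt feedback inhibitor, ranked 3 and 4 at E12, 1 in E14.5 replicate 1, and 3 and 2 at E16. It ranked 5, 3 and 2 in the Sox2-EGFP- lists, so its rank was not particular to prosensory cells. Hey1, a Notch target, had 2 such regions, at offsets of -50.7 and -99.8 kb, and the farther one ranked 245 and 92 at E12 and 730 and 193 at E16. The region 33.5 kb upstream of Id4 ranked 626 and 135 at E12 and 108 and 95 at E16. The promoter of Ccna2, which encodes cyclin A2, ranked 58 and 22 at E12 and 192 and 873 at E16. In the Sox2-EGFP- lists this Id4 region ranked 281, 159 and 185 and the Ccna2 promoter 33, 139 and 764. The farther Hey1 region ranked lower there, at 5217, 7707 and 3825.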
